A study of Arabidopsis thaliana with 12 samples.

Results

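Loss of the CBP60b clade was examined in the aerial tissues of *Arabidopsis thaliana* seedlings by RNA-seq, as the comparison of the quintuple mutant with wild type over all genes of the raw count matrix. The quintuple mutant (cbp60b;c;d;e;f) carries mutations in all 5 genes of the clade, CBP60b, CBP60c, CBP60d, CBP60e and CBP60f, in the Columbia-0 background. It has functional EDS1, PAD4 and NDR1, and WT is Columbia-0. The members of the comparison were chosen by genotype: 3 quintuple libraries and 3 WT libraries of the 12 libraries and 4 genotypes of the series. Both groups were grown under 16 h of light per day and were collected at an age of 2 weeks, and each library came from a pool of 20 to 30 seedlings. The labels do not say which of the quintuple lines of the study was sequenced. According to the study's supplement, quintuple plants die at about or before the age of sampling. This limits them as a model, because genotype and the state of dying seedlings cannot be told apart in these libraries. p-values measure only the spread between pooled samples.

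CBP60 proteins are plant transcription factors, many of which bind calmodulin. CBP60g and SARD1, which belong to other branches of the family, switch on the genes for the synthesis of salicylic acid (SA), the hormone that drives resistance to biotrophic pathogens, while CBP60b acts upstream of both. Immunity in *Arabidopsis* starts at cell-surface receptors that recognise microbial patterns and at intracellular NLR receptors that recognise effectors, and EDS1, PAD4 and NDR1 link the NLRs to SA and to cell death. An autoimmune mutant runs these pathways without a pathogen and is typically small.

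The libraries held 38698646 to 41198434 counted fragments in quintuple and 41198211 to 44119910 in WT, so a single gene was detectable above 3 counts at about the same level in each. The 10 most abundant genes took 5.19% to 5.82% of the counts in quintuple and 8.88% to 12.0% in WT. Levels are given as CPM, the count of a gene per 1000000 counted fragments, always in the order of replicates 1, 2 and 3. Library sizes were first scaled by TMM, a method in edgeR that assumes most genes keep their level. Genes were tested with the quasi-likelihood test of edgeR. Fold changes are log2 of quintuple over WT with their standard error (SE), and p-values were adjusted over all tested genes by the Benjamini-Hochberg method. A gene was called a DEG, and is said to have risen or fallen, at an adjusted p below 0.05 and a fold of at least 2. Of 23784 genes counted, 19691 passed the filter on low counts and 7695 (39.1%) were DEGs, of which 3846 (19.5%) rose and 3849 (19.5%) fell in quintuple. With the replicate number as a block in the fit 3922 rose (19.9%) and 4024 fell (20.4%). These shares of all tested genes are the background for each count of called list members below. A tested gene at 0 in every library of 1 genotype passed the filter only through the other genotype. All such genes were called, 136 at 0 in WT and 61 at 0 in quintuple, and those on a list are part of its counts. Their calls follow in part from the filter. The groups did not overlap for 34.6% of all tested genes with quintuple higher and for 33.5% with quintuple lower. The median log2 fold change over all tested genes was 0.0047. With library size alone as the scaling, 4858 genes rose and 2955 fell and the median of all genes moved to 0.27. With upper-quartile factors 3403 rose and 4456 fell, and the median moved to -0.15. Quintuple and WT libraries parted on the first principal component, which held 83.3% of the variance, and replicate 3 of each genotype lay apart from the other two on the second, which held 9.16%. Where a list below has no member that rose in edgeR, at most 1 of its members was higher in quintuple at an unadjusted p below 0.05, and neither DESeq2 nor limma on log2 FPKM called one as higher. Genes used as marks of roots were almost silent, with a summed level of 0.181 to 0.429 CPM in quintuple and 0.753 to 1.53 CPM in WT. Many genes overlap a neighbour, and the strand setting of the counting is not given in the sources used here. Counts are less certain for genes that share exon sequence or genome position with another gene, among the named ones AMY1, AOC3, AT1G26410, AT2G24310, BIP1, BT5, CAB2, CBP60a, CCR2, CER2, CESA4, CHS, COR15B, CYCD1;1, CYCD3;1, CYP71A12, CYP71A13, F3H, FLS2, GL2, GRF1, HEMC, HSP101, JAZ10, KAN1, KNOLLE, LHCB3, MCM7, NDR1, NPR1, PAL2, PAO, PR3, RBCS1B, REV, RLP22, RLP23, RLP40, SARD1, SAUR68, SOBIR1, TCP3, THI2.1, UGT74F1 and XCP1.

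The mutated genes were still counted in quintuple. CBP60b (AT5G57580, chromosome 5, 23314672 to 23318177 in the TAIR10.1 build) had 257, 231 and 160.2 CPM in quintuple, against 43.8, 43.3 and 45.9 CPM in WT (log2 fold change 2.28 ± 0.20), and the groups did not overlap. CBP60c (AT2G18750) had 30.5, 36.5 and 34.6 CPM in quintuple, against 44.4, 49.3 and 48.97 CPM in WT (log2 fold change -0.49 ± 0.12), lower in every quintuple library but under the fold threshold. CBP60d (AT4G25800) had 4.29, 5.12 and 4.66 CPM in quintuple, against 2.53, 3.99 and 3.91 CPM in WT, a difference that did not pass the test. CBP60e (AT2G24300) fell, with 1.47, 2.12 and 1.07 CPM in quintuple, against 3.63, 4.38 and 2.21 CPM in WT. Its call was lost when quintuple replicate 1 or 3 or WT replicate 1 or 2 was left out. CBP60f (AT4G31000) had 28.9, 18.9 and 19.4 CPM in quintuple, against 13.4, 13.5 and 6.69 CPM in WT (log2 fold change 1.00 ± 0.32), at the fold threshold, and its call was lost under 11 of 18 alternatives. Counts were summed over whole genes, so transcripts of a disrupted gene count like intact ones and these levels do not check the loss of function. Of the genes outside the clade, CBP60a (AT5G62570), which restrains immunity, had 135, 61.7 and 55.3 CPM in quintuple, against 20.6, 25.1 and 10.6 CPM in WT. CBP60g (AT5G26920) had 157, 98.6 and 176 CPM in quintuple, against 9.498, 10.01 and 3.69 CPM in WT. SARD1 (AT1G73805) had 37.8, 26.3 and 106 CPM in quintuple, against 11.8, 4.93 and 6.398 CPM in WT. All quintuple libraries were above all WT libraries for each of these genes, as they were for 34.6% of all tested genes, and all 3 were called. Beside the mutated genes, XTR6, the next gene after CBP60d, rose, while BIO1, the next after CBP60b, and AT2G24310, the next after CBP60e, fell. The other flanking genes were not called.

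**Figure D1:**
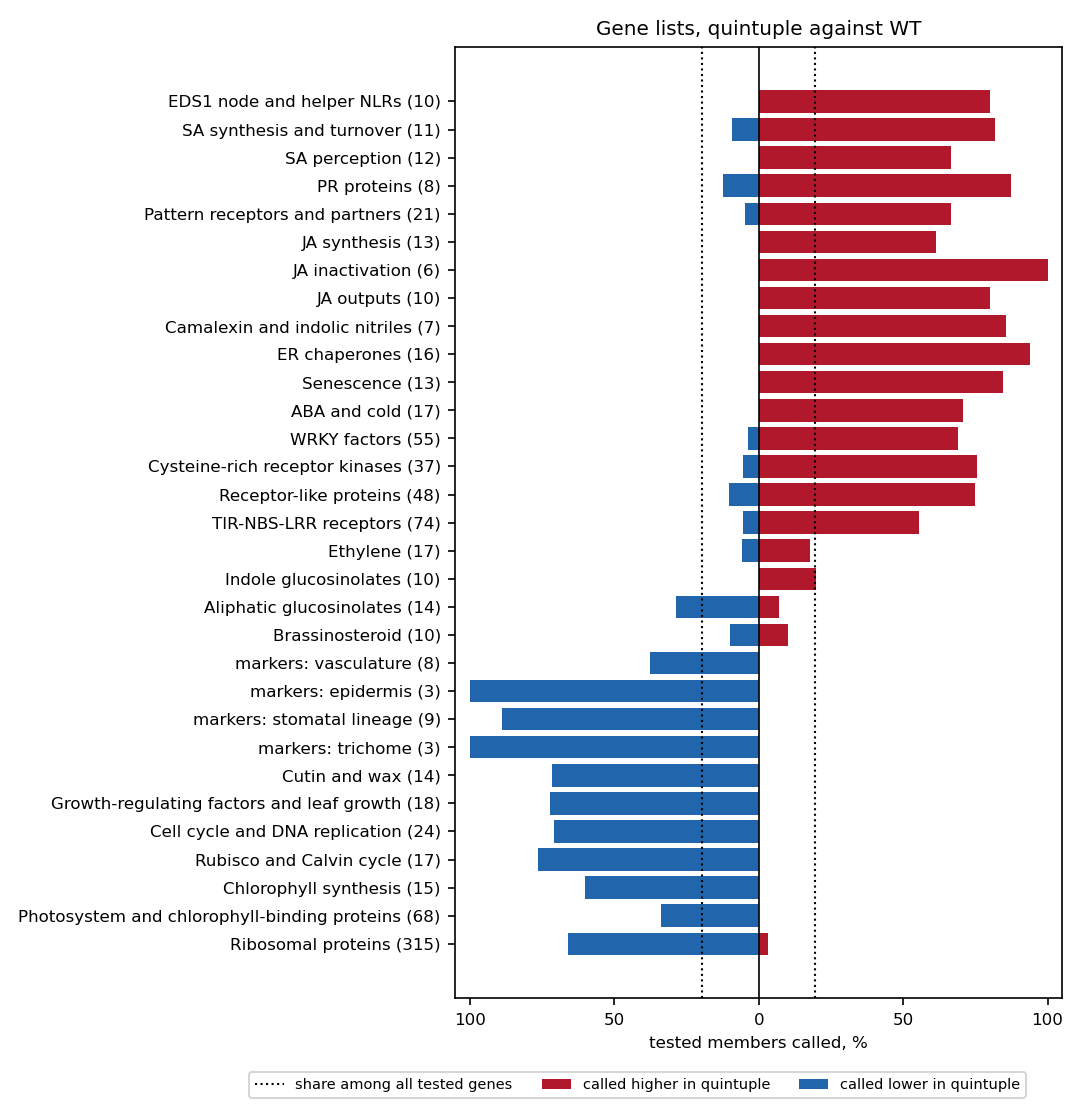
Share of the tested members of each gene list called higher in quintuple (red, to the right) or lower (blue, to the left), in percent; the number of tested members is in brackets and dotted lines mark the 19.5% of all tested genes called in each direction. Lists of immunity, jasmonate, ER chaperones and senescence lie to the right and those of the shoot surface, leaf growth, photosynthesis and ribosomes to the left.

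Genes of the outer cell layer, the stomatal lineage, trichomes and the cuticle were far lower in quintuple. All 3 epidermis markers, 8 of 9 stomatal lineage markers, all 3 trichome markers and 10 of 14 tested genes of cutin and wax synthesis fell and none rose, against 19.5% of all tested genes called down. The median log2 fold changes of these lists were -2.04, -3.51, -5.02 and -2.40. These are bulk libraries, in which fewer cells of a type and less RNA per cell cannot be told apart. PDF1 (AT2G42840), a protein of the outermost layer of the shoot, had 1.57, 2.36 and 0.724 CPM in quintuple, against 242, 247 and 205 CPM in WT (log2 fold change -7.23 ± 0.49), at an edgeR adjusted p of 0.000221. ATML1, the homeodomain factor that specifies the epidermis, had 35.8, 30.3 and 18.9 CPM in quintuple, against 118, 127 and 103 CPM in WT (log2 fold change -2.04 ± 0.25). FDH (AT2G26250), a fatty acid elongation enzyme of the surface layer, had 119, 95.9 and 42.6 CPM in quintuple, against 357, 369 and 318 CPM in WT (log2 fold change -2.02 ± 0.37). Quintuple and WT libraries did not overlap for any of them, a property that 33.5% of all tested genes showed with quintuple lower.

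The stomatal lineage begins with SPCH, which starts the asymmetric divisions, passes through MUTE and ends with FAMA, which sets guard cell fate. SPCH (AT5G53210) had 0, 0 and 0.0201 CPM in quintuple, against 6.48, 8.45 and 7.46 CPM in WT (edgeR adjusted p = 0.000177). That was a single fragment in quintuple over all libraries. MUTE had 0.0253, 0.0238 and 0 CPM in quintuple, against 1.103, 0.991 and 0.9597 CPM in WT. FAMA fell less, with 5.91, 4.64 and 5.08 CPM in quintuple, against 17.5, 14.5 and 19.2 CPM in WT (log2 fold change -1.71 ± 0.18). The spacing receptor gene TMM, which only shares its name with the scaling, fell, with 0.303, 0.643 and 0.221 CPM in quintuple, against 14.3, 19.2 and 19.7 CPM in WT (log2 fold change -5.51 ± 0.42), and so did EPF1, the gene of its ligand. Of the genes of mature guard cells, MYB60 fell, with 1.89, 2.12 and 1.31 CPM in quintuple, against 7.803, 7.98 and 7.26 CPM in WT. The kinase gene HT1 fell with calls lost under 7 alternatives. The potassium channel gene KAT1 had 31.2, 19.05 and 33.5 CPM in quintuple, against 15.3, 20.6 and 19.2 CPM in WT, which did not pass the test.

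In the trichome list GL1, the MYB factor that starts a trichome, had no count in any quintuple library and 1.83, 1.33 and 2.44 CPM in WT, at least 82.2-fold lower against 3 counts over the quintuple libraries. GL2, which acts after it, had 0.404, 0.452 and 1.005 CPM in quintuple, against 26.2, 16.5 and 18.9 CPM in WT (log2 fold change -5.02 ± 0.42). TRY, an inhibitor of trichome fate, had 0.657, 0.762 and 0 CPM in quintuple, against 7.399, 7.43 and 6.299 CPM in WT (log2 fold change -3.91 ± 0.98). GL1 alone was at 0 in every quintuple library, and the groups did not overlap for any of them. In the cuticle, DCR, an acyltransferase needed for cutin, had 1.24, 0.524 and 1.13 CPM in quintuple, against 73.2, 63.2 and 79.9 CPM in WT (log2 fold change -6.22 ± 0.36). CYP86A4 and CYP86A8, fatty acid hydroxylases, had log2 fold changes of -6.09 ± 0.64 and -3.87 ± 0.24. LACS2, which activates fatty acids for cutin, had 7.96, 6.24 and 3.22 CPM in quintuple, against 55.9, 44.6 and 49.3 CPM in WT (log2 fold change -3.11 ± 0.34). Of the wax genes, CER2 fell most among those tested (log2 fold change -4.50 ± 0.36), CER1 fell (-1.92 ± 0.41), and KCS6 (-0.43 ± 0.43) did not pass the test. KCS1 had 58.6, 44.998 and 11.2 CPM in quintuple, against 216, 160.5 and 57.1 CPM in WT, not called in the fit without a block but called with the replicate number as a block (edgeR adjusted p = 0.00156).

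**Figure D2:**
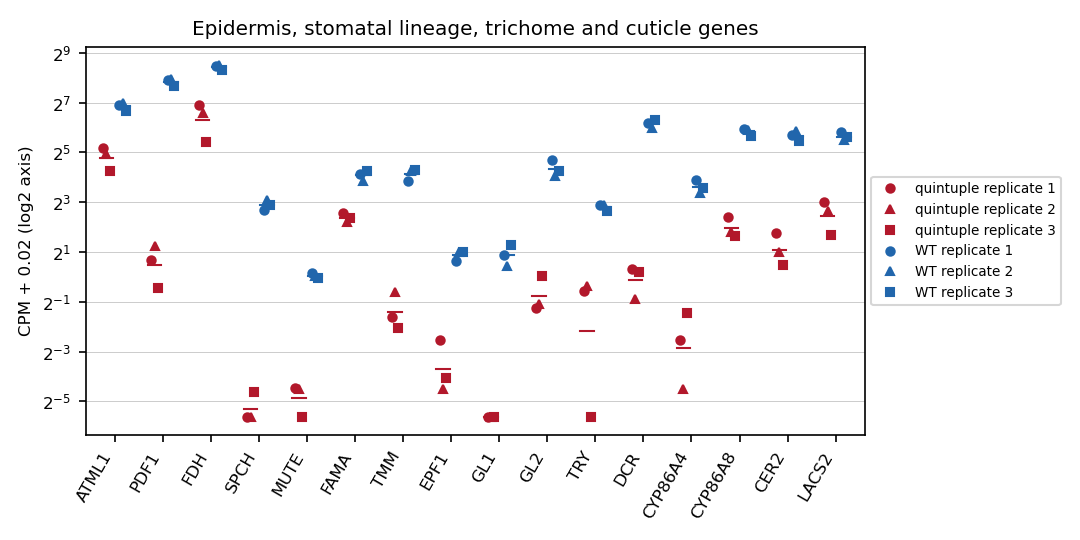
Level of each gene in each library as CPM plus 0.02 on a log2 axis, quintuple (red) left of WT (blue), with a symbol for each replicate and a line at the geometric mean of each group. For all genes shown, all quintuple libraries lie under all WT libraries, and GL1 sits at 0 CPM in quintuple.

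The L1 box, TAAATGCA, is a promoter element bound by ATML1 and related factors in epidermal genes. It was searched on both strands in the 250 bases before each gene start of RefSeq (TAIR10.1) and was found in 1.54% of the 19690 tested genes with a window and in 2.08% of those that fell. It was in 12 (4.24%) of the 283 genes (1.44% of those tested) that fell by 5 or more on the log2 scale. The variant TAAATGTA was in 3.01%, 3.56% and 4.95% of the same groups. By list, TAAATGCA was in 2 of 9 stomatal lineage markers, 1 of 3 epidermis markers, 0 of 3 trichome markers and 1 of 14 cutin and wax genes. A match is a description of the letters only. The windows of 4 genes, picked because they hold a match, are printed to show where the element lies. They run 5′ to 3′ on the strand of the gene, with the element in capitals (TGCATTTA where it lies on the opposite strand). The genes are TMM (chr1:30129650-30129899, minus strand), FDH (AT2G26250, chr2:11173279-11173528, minus strand), CYP77B1 (chr1:3901700-3901949, plus strand), a cytochrome P450 gene, and EXPA5 (chr3:11013452-11013701, minus strand), a cell wall expansin.
TMM: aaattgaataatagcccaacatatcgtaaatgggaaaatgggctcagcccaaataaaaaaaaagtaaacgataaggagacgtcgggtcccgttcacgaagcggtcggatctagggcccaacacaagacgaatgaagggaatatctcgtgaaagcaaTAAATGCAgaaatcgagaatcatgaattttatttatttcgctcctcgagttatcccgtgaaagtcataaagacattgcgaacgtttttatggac
FDH: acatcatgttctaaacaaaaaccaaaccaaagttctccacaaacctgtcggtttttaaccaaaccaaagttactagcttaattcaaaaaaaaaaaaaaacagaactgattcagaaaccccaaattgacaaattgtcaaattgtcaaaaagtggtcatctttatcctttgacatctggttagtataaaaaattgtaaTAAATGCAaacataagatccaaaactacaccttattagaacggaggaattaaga
CYP77B1: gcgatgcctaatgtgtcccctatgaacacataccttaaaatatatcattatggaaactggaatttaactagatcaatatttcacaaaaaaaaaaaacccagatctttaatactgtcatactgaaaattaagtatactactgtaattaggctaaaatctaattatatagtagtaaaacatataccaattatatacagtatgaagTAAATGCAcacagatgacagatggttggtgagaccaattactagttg
EXPA5: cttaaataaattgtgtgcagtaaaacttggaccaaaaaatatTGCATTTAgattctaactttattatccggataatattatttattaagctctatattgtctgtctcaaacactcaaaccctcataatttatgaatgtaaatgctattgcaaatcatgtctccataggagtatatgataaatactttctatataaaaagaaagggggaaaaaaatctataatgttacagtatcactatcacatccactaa
CYP77B1 had 0.0758, 0 and 0.0201 CPM in quintuple, against 16.8, 18.5 and 24.6 CPM in WT (log2 fold change -9.21 ± 0.56). EXPA5 had 5.41, 3.19 and 1.47 CPM in quintuple, against 99.2, 104 and 93.6 CPM in WT (log2 fold change -4.88 ± 0.49). The match closest to a gene start, in CYP77B1, began 47 bases before it and the one farthest off, in EXPA5, 208 bases before it.

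Growth-regulating factors (GRF), which promote cell proliferation in leaves, fell in quintuple. On a list of leaf growth genes that also holds ANT, KLU, ARGOS, ARL and TCP factors, 13 of 18 tested genes fell and none rose (median log2 fold change -2.94). All 8 tested GRF genes and GIF1, the gene of their coactivator, were among those that fell. GRF4 had 0.758, 0.667 and 0.201 CPM in quintuple, against 9.96, 11.1 and 12.97 CPM in WT (log2 fold change -4.40 ± 0.48). GIF1 had 0.379, 0.857 and 0.402 CPM in quintuple, against 10.04, 9.36 and 10.8 CPM in WT (log2 fold change -4.20 ± 0.36). GRF6 had no count in quintuple and 0.673, 0.469 and 0.787 CPM in WT, at least 28.3-fold lower. GRF1, the least changed of the called GRF genes, had 6.01, 6.83 and 6.13 CPM in quintuple, against 12.9, 14.9 and 16.2 CPM in WT. The groups did not overlap for any of the called genes of the list. ANT, which prolongs cell proliferation in organs, and KLU, a cytochrome P450 that acts on organ size, fell (-2.83 ± 0.22 and -3.17 ± 0.54). ARGOS and ARL, which also promote organ size, did not pass the test (0.62 ± 0.41 and 0.71 ± 0.41). Of the TCP factors that end proliferation TCP4 and TCP10 fell (-1.78 ± 0.20 and -1.24 ± 0.32) while TCP2, TCP3 and TCP24 did not pass. Among genes of the meristem and of leaf polarity 4 of 9 fell. STM, which keeps the meristem undifferentiated, had 0.455, 0.381 and 0.241 CPM in quintuple, against 5.004, 3.26 and 6.08 CPM in WT (log2 fold change -3.73 ± 0.39). The polarity gene FIL fell too (-3.15 ± 0.75), while the polarity genes REV, PHB and KAN1 did not pass (-0.15 ± 0.19, -0.35 ± 0.20 and -0.17 ± 0.18).

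Cell cycle genes fell by less. Of 24 tested genes of the cell cycle and DNA replication 17 fell and none rose (median log2 fold change -1.30). Only 7 of the 17 calls were kept when the fold itself was tested against 2 (glmTreat). CYCD1;1, a cyclin of the entry into the cycle, had 1.92, 0.738 and 1.85 CPM in quintuple, against 17.1, 25.8 and 18.23 CPM in WT (log2 fold change -3.76 ± 0.41). KNOLLE, a syntaxin of the cell plate, had 5.81, 6.69 and 11.4 CPM in quintuple, against 24.9, 27.7 and 31.3 CPM in WT (log2 fold change -1.81 ± 0.28). Both were lower in every quintuple library. CYCB1;1, a mitotic cyclin, had 0.733, 1.095 and 1.81 CPM in quintuple, against 3.12, 4.25 and 5.61 CPM in WT (log2 fold change -1.83 ± 0.41). The replication helicase gene MCM7 had 9.47, 12.7 and 13.97 CPM in quintuple, against 32.2, 37.7 and 31.7 CPM in WT (log2 fold change -1.49 ± 0.18). CDKA;1, the kinase present throughout the cycle, and the D-type cyclin gene CYCD3;1 had log2 fold changes of 0.03 ± 0.13 and 0.09 ± 0.19 and did not pass the test.

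Cell wall loosening genes moved in both directions. Among tested xyloglucan endotransglucosylases 4 of 21 rose and 9 fell, and among alpha-expansins 1 of 14 rose and 5 fell. The rises were at or below the 19.5% of all tested genes called up. XTH9 had 5.71, 6.74 and 3.26 CPM in quintuple, against 170.0, 173 and 157 CPM in WT (log2 fold change -4.99 ± 0.31). XTH11 had 1.72, 1.67 and 1.91 CPM in quintuple and no count in WT, at least 68.7-fold higher against 3 counts over the WT libraries. EXPA4 was the expansin that rose, with 124, 149 and 181 CPM in quintuple, against 38.4, 39.99 and 56.8 CPM in WT (log2 fold change 1.75 ± 0.22). Of 52 tested SAUR genes, a family induced by auxin in elongating tissue, 9 rose and 24 fell (median log2 fold change -2.40). With the replicate number as a block 30 fell, and leaving out WT replicate 1 or 2 lowered the falls to 15 or 14. SAUR68 had 0.177, 0.0238 and 0 CPM in quintuple, against 6.27, 8.19 and 3.13 CPM in WT (log2 fold change -6.48 ± 0.94). SAUR36, a SAUR linked to leaf senescence, had 8.82, 14.1 and 21.9 CPM in quintuple, against 0.457, 0.417 and 0.221 CPM in WT (log2 fold change 5.35 ± 0.47).

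Ribosomal protein genes were lower in quintuple. Of 315 tested genes with such a product name in the RefSeq annotation, among them genes for ribosomes of the cytosol and of the organelles, 208 fell and 10 rose. Their median log2 fold change was -1.25, against 0.0047 over all tested genes. Of the 143 with a mean of at least 100 CPM over the 6 libraries, 134 fell and all 143 were lower in quintuple, with a median of -1.48. The summed level of the whole list was 18654, 20179.9 and 19809 CPM in quintuple and 51852, 58346 and 56193 CPM in WT, so the groups did not overlap. RPL4 (AT1G07320) had 88.1, 93.1 and 48.1 CPM in quintuple, against 499.6, 621 and 653 CPM in WT (log2 fold change -2.95 ± 0.31). AT1G29070, another member that fell, had 59.04, 53.997 and 34.5 CPM in quintuple, against 369, 453 and 477 CPM in WT (log2 fold change -3.14 ± 0.26). RPL4 and AT1G29070 are genes of the plastid ribosome, and the list was not split by compartment. AT4G26060, the member that rose most, had 31.8, 31.05 and 60.1 CPM in quintuple, against 4.06, 3.102 and 3.49 CPM in WT. The list was made from words of the product name, so AT4G26060 need not encode a part of a ribosome. With library size alone as the scaling 154 still fell.

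**Figure D3:**
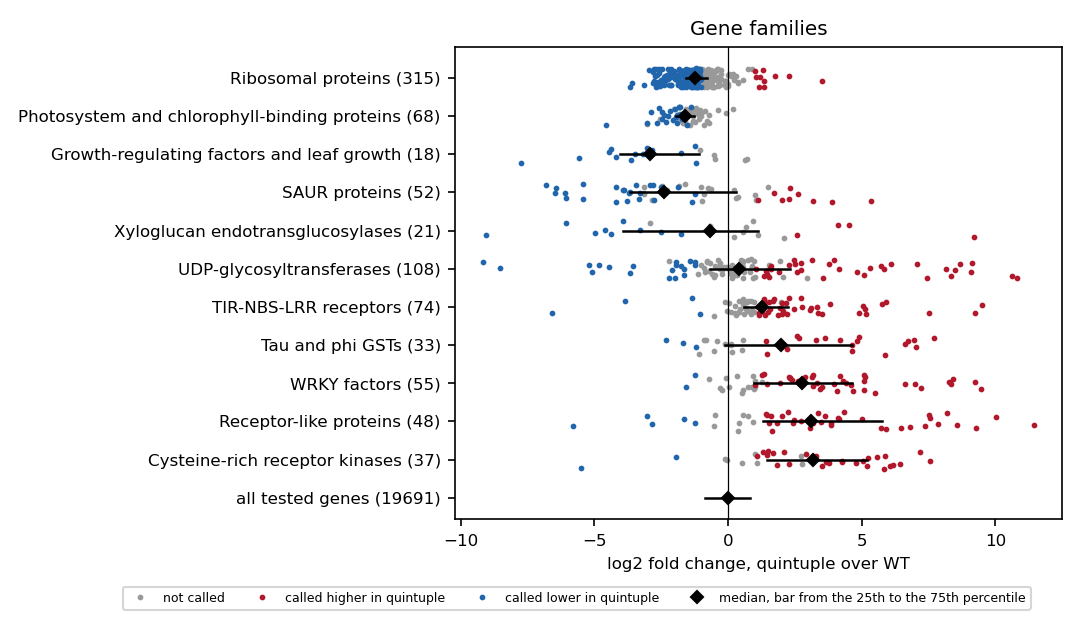
Log2 fold change of quintuple over WT for each tested member of 11 gene families or lists and, at the bottom, the range for all tested genes; red and blue points are called genes, grey points are not, and diamonds with bars are the median and the 25th to 75th percentile. Ribosomal protein genes crowd between -3 and 0 while WRKY factors, receptor-like proteins and cysteine-rich receptor kinases spread to high positive values.

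Genes of carbon fixation fell in quintuple. In the Calvin cycle 13 of 17 tested genes fell and none rose (median log2 fold change -1.92), and with the replicate number as a block 15 fell. The summed level of the list was 29646, 27206 and 9476 CPM in quintuple and 94049, 92195 and 91212 CPM in WT. SBPASE, a bisphosphatase of the cycle, had 431, 398 and 144 CPM in quintuple, against 1699.6, 1398 and 2031 CPM in WT (log2 fold change -2.40 ± 0.47). RBCS1B, a small subunit of Rubisco, had 385, 370.1 and 247 CPM in quintuple, against 2988, 2879 and 3462 CPM in WT (log2 fold change -3.22 ± 0.36). RBCS1A, the most abundant transcript of WT by FPKM, had 6219, 5608 and 2442 CPM in quintuple, against 23385, 24688 and 23469 CPM in WT (log2 fold change -2.33 ± 0.83). It was not called without the block (edgeR adjusted p = 0.0504) and was called with it (edgeR adjusted p = 0.0282). Quintuple replicate 3 was the lowest library for each of these genes.

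Photosystem and chlorophyll-binding genes were lower in quintuple at equal replicate number. Their summed level was 76022, 70776 and 9701 CPM in quintuple and 179726, 202894 and 48929 CPM in WT. Replicate 3 was the lowest library in both genotypes, and quintuple replicates 1 and 2 were above WT replicate 3. In the fit without a block 23 of 68 tested genes fell and none rose (median log2 fold change -1.60). With the replicate number as a block 58 fell, and without replicate 3 of both genotypes 54 fell. CAB2, a chlorophyll-binding protein of photosystem II, had 2649, 2514 and 13.5 CPM in quintuple, against 9351, 9719 and 39.4 CPM in WT. LHCB3, another such protein, had 3045, 2778 and 77.7 CPM in quintuple, against 8131, 8486 and 206 CPM in WT. Neither was called without the block, and both were with it (edgeR adjusted p = 0.0141 and 0.0209). In chlorophyll synthesis 9 of 15 tested genes fell and none rose (median log2 fold change -1.68). With the block 14 fell, and without replicate 3 of both genotypes 15 of the 16 genes on the list fell. HEMC, an early enzyme of the pathway, had 137, 128 and 107 CPM in quintuple, against 396, 469 and 425 CPM in WT and was called (log2 fold change -1.79 ± 0.17). CHLH, a subunit of magnesium chelatase, had 1861, 1379 and 126 CPM in quintuple, against 4340.2, 3815 and 892 CPM in WT and was called with the block (edgeR adjusted p = 0.0216). Quintuple replicate 3 was again the lowest library for both.

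Core clock genes moved with replicate 3 of both genotypes as well. CCA1, which peaks at dawn, had 106, 71.2 and 2.35 CPM in quintuple, against 143, 101 and 1.35 CPM in WT. TOC1, which peaks in the evening, had 36.5, 26.7 and 178 CPM in quintuple, against 11.03, 13.9 and 104 CPM in WT. ELF4, an evening gene, had 1.11, 2.02 and 155 CPM in quintuple, against 0.457, 0.339 and 35.02 CPM in WT. Replicate 3 was the low library for CCA1 and the high library for TOC1 and ELF4 in each genotype. Of the 11 clock genes only GI was called without the block, with 89.1, 86.2 and 54.7 CPM in quintuple, against 22.7, 32.6 and 8.71 CPM in WT (log2 fold change 1.85 ± 0.48). With the block 4 were called, as PRR5, TOC1 and ELF4 were then higher too (for TOC1 and ELF4, edgeR adjusted p = 0.0119 and 0.00348). The part of replicate 3 in the photosynthesis results was not tested beyond these values.

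**Figure D4:**
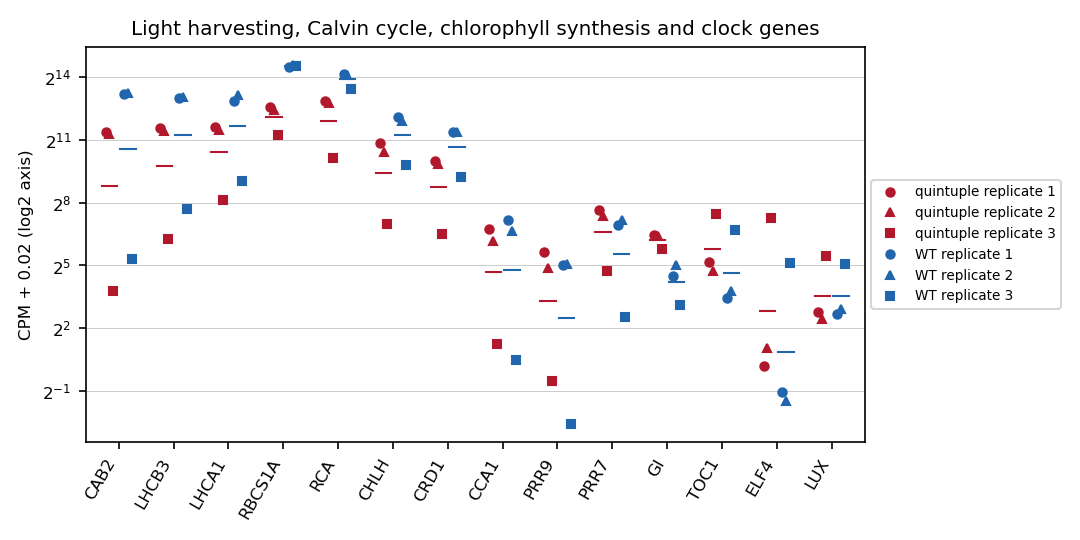
Level of light harvesting, Calvin cycle, chlorophyll synthesis and clock genes in each library as CPM plus 0.02 on a log2 axis, quintuple (red) left of WT (blue), with a square for replicate 3 and lines at the geometric means. The squares lie far under the other symbols for CAB2, LHCB3 and CCA1 and above them for TOC1 and ELF4, in both genotypes.

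Salicylic acid genes were high in every quintuple library. Of 11 tested genes of SA synthesis and turnover 9 rose and 1 fell (median log2 fold change 4.96). ICS1, the isochorismate synthase that starts SA synthesis, had 652, 371 and 627 CPM in quintuple, against 15.9, 11.9 and 5.34 CPM in WT (log2 fold change 5.64 ± 0.52), at an edgeR adjusted p of 0.000431. PBS3, which joins isochorismate to glutamate, had 342, 247 and 448 CPM in quintuple, against 3.901, 1.28 and 3.22 CPM in WT (log2 fold change 6.95 ± 0.54). Both steps of the synthesis were thus higher in every quintuple library. DLO1, a hydroxylase that removes SA, had 342, 259 and 908 CPM in quintuple, against 2.26, 0.417 and 1.599 CPM in WT (log2 fold change 8.46 ± 0.92). MES9, an esterase that frees SA from its methyl ester, had 124, 138 and 73.04 CPM in quintuple, against 4.17, 2.76 and 0.9597 CPM in WT (log2 fold change 5.41 ± 0.60). UGT74F1, which joins SA to glucose, was the gene that fell, with 0.606, 0.524 and 0.502 CPM in quintuple, against 1.64, 1.54 and 3.101 CPM in WT. The groups did not overlap for any of these genes. FMO1, which makes N-hydroxypipecolic acid for systemic resistance, had 87.04, 55.7 and 30.4 CPM in quintuple, against 0.457, 0 and 0 CPM in WT (log2 fold change 8.57 ± 1.17). ALD1, which acts earlier in the same pathway, was under the filter with 0.152, 0.0476 and 0.121 CPM in quintuple, against 2.37, 0.0261 and 0 CPM in WT. Of the SA receptors and their partners 8 of 12 rose (median log2 fold change 1.53). NPR1 rose by 1.21 ± 0.19 on the log2 scale and the repressor gene NIMIN1 by 6.41 ± 0.91.

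Among the pathogenesis-related (PR) genes, PR1, PR2 and PR5 are the classical readout of SA. PR1 and PR2 were among the most abundant transcripts of quintuple. PR1 had 3293, 4482 and 4455 CPM in quintuple, against 54.8, 2.32 and 2.04 CPM in WT (log2 fold change 7.69 ± 1.66). PR2, a glucanase, had 3174, 4404 and 6546 CPM in quintuple, against 24.03, 4.67 and 10.2 CPM in WT (log2 fold change 8.50 ± 0.91). The chitinase gene CHI had 2877, 3138 and 3987 CPM in quintuple, against 9.01, 2.71 and 1.21 CPM in WT (log2 fold change 9.60 ± 1.02). Of 8 tested PR genes, some of which respond to jasmonate and ethylene rather than SA, 7 rose (median log2 fold change 6.58). WT replicate 1 was the highest WT library for PR1, PR2, PR5 and CHI. PRB1, the basic form of PR1, fell, with 0, 0 and 0.0804 CPM in quintuple, against 1.08, 2.61 and 0.566 CPM in WT. FPKM divides by gene length as well and allows levels to be compared between genes. By mean FPKM, PR1 (4999 in quintuple, 19.4 in WT), PR2 (3577 in quintuple, 7.99 in WT) and CHI (3249.8 in quintuple, 3.37 in WT) were among the 10 highest transcripts of quintuple. The 10 highest in WT were all genes of photosynthesis, RBCS1A first with 4019 FPKM in quintuple and 17162 FPKM in WT.

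Genes of the NLR pathway and cell-surface receptors rose with them. In the EDS1 node 8 of 10 genes rose (median log2 fold change 2.21). EDS1 had 124, 73.8 and 115 CPM in quintuple, against 24.1, 18.6 and 23.2 CPM in WT. PAD4, its partner, had 129, 74.3 and 114 CPM in quintuple, against 10.4, 5.01 and 4.85 CPM in WT. NDR1 rose by 1.43 ± 0.24 on the log2 scale, and the helper gene ADR1-L2 was under the fold threshold (log2 fold change 0.98 ± 0.19). Of 21 tested pattern receptors and partners 14 rose and 1 fell (median log2 fold change 1.74). RLP23, a receptor of a microbial peptide, had 227, 165 and 308 CPM in quintuple, against 7.64, 1.96 and 2.17 CPM in WT (log2 fold change 5.90 ± 0.68). SOBIR1, its partner, had 731, 539.9 and 765 CPM in quintuple, against 66.6, 51.1 and 32.6 CPM in WT (log2 fold change 3.76 ± 0.34). LYK5, a chitin receptor, had 126, 75.02 and 82.9 CPM in quintuple, against 5.78, 8.55 and 3.32 CPM in WT (log2 fold change 4.01 ± 0.41). All 3 receptors were higher in every quintuple library. The flagellin receptor gene FLS2 was the one that fell, with 5.96, 6.19 and 3.397 CPM in quintuple, against 15.8, 16.7 and 11.4 CPM in WT (log2 fold change -1.498 ± 0.29). The receptors thus did not all move one way.

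Whole families of regulators and receptors were shifted upwards. Of 55 tested WRKY factors, which bind the W-box of defence promoters, 38 rose and 2 fell (median log2 fold change 2.78). WRKY62 had 51.6, 42.9 and 167 CPM in quintuple, against 0.215, 0 and 0.148 CPM in WT (log2 fold change 9.46 ± 1.02). WRKY31 had 1.36, 2.095 and 2.03 CPM in quintuple and no count in WT, at least 71.6-fold higher. Like WRKY61 and WRKY72, also at 0 in WT, it passed the filter only through quintuple. WRKY27 fell, with 1.14, 1.62 and 1.23 CPM in quintuple, against 4.17, 2.61 and 2.56 CPM in WT (log2 fold change -1.23 ± 0.32). Of 37 tested cysteine-rich receptor kinases 28 rose and 2 fell (median 3.17). CRK38 rose, with 39.3, 25.02 and 49.2 CPM in quintuple, against 0.323, 0.104 and 0.172 CPM in WT. CRK30 fell, with 0.152, 1.36 and 0.0201 CPM in quintuple, against 22.8, 33.5 and 12.3 CPM in WT. Of 48 tested receptor-like proteins 36 rose and 5 fell (median 3.09). RLP22 had 12.1, 6.09 and 7.46 CPM in quintuple and no count in WT, at least 326-fold higher. RLP28 had 32.5, 18.5 and 92.5 CPM in quintuple, against 0.108, 0 and 0.0246 CPM in WT (log2 fold change 10.02 ± 1.06). Both were at or near 0 in WT. RLP44, a receptor-like protein of cell wall and brassinosteroid signalling, RLP51 and RLP29 fell (-3.02 ± 0.44, -2.86 ± 0.16 and -5.81 ± 0.73). Of the NLR receptors 41 of 74 tested TIR-NBS-LRR genes rose and 4 fell (median 1.27). By comparison 13 of 32 tested CC-NBS-LRR genes rose and 1 fell (median 0.66). NAC factors (32 of 59 rose, 8 fell) and tau and phi glutathione transferases (19 of 33 rose, 3 fell) were shifted upwards too. So were class III peroxidases (32 of 60 rose, 9 fell). The shares that fell, 13.6%, 9.09% and 15.0% in the same order, were each under the share of all tested genes called down.

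The core of the W-box, TTGAC, was found on either strand of the 250 bases before the gene start in 45.1% of all 19690 genes, in 53.1% of those that rose and in 40.4% of those that fell. It was in 59.97% of the 722 genes (3.67% of those tested) that rose by at least 5 on the log2 scale. The lists with many rises lay on both sides of the share of all genes. Receptor-like proteins had it in 37 of 48 promoters (77.1%), cysteine-rich receptor kinases in 27 of 37 (73.0%) and WRKY factors in 30 of 55 (54.5%). NAC factors had it in 20 of 59 (33.9%), ER chaperones in 6 of 16 (37.5%), PR proteins in 3 of 8 (37.5%) and genes of jasmonate inactivation in 0 of 6. GAAATTT, the core of the element that CBP60g and SARD1 bind, was in 12.6% of all, in 12.5% of those that rose and in 13.7% of those that rose by at least 5. The lists with many rises lay on both sides of the share of all genes here too. GAAATTT was in 4 of 11 genes of SA synthesis and turnover (36.4%) and in 3 of 8 PR genes (37.5%). It was in 6 of 37 cysteine-rich receptor kinases (16.2%), 6 of 48 receptor-like proteins (12.5%), 4 of 55 WRKY factors (7.27%) and 0 of 10 jasmonate outputs. TTGAC and TGACG, the core of the as-1 element, can overlap. The windows of 5 genes that rose are shown to let the matches be seen. They were picked after the matches had been found in them and say nothing of how frequent the motifs are. TTGAC or, on the opposite strand, GTCAA is in capitals for CHI (chr2:18077518-18077767, minus strand), CYP71A12 (chr2:13101372-13101621, minus strand), WRKY62 (chr5:352096-352345, minus strand) and RLP28 (chr2:14031748-14031997, plus strand). For FMO1 (chr1:6653196-6653445, minus strand) the capitals mark GAAATTT or, on the opposite strand, AAATTTC.
CHI: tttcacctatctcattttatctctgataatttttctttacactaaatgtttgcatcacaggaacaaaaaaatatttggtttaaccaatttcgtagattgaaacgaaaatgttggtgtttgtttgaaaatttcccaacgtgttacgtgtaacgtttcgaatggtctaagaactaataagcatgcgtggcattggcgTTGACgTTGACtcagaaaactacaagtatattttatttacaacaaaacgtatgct
CYP71A12: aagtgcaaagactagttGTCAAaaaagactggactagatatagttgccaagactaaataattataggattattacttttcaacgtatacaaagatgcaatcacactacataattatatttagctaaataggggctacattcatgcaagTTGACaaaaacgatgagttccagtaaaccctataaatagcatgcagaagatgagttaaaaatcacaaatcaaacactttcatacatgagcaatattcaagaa
WRKY62: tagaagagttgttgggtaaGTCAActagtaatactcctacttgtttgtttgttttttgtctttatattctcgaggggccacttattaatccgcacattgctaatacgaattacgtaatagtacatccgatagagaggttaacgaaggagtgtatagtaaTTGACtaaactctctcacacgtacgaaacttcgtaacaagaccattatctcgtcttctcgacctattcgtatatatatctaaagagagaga
RLP28: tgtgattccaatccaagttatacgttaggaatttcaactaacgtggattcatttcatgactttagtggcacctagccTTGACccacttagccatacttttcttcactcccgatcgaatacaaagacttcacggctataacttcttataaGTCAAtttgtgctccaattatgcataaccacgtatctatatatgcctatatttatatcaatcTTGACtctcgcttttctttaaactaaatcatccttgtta
FMO1: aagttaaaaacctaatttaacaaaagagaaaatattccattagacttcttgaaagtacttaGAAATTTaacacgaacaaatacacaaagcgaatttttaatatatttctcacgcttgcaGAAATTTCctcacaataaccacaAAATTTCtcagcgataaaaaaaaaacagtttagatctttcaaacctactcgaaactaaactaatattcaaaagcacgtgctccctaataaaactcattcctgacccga
CHI held 2 matches, whose first bases lay 49 and 55 bases before the start. CYP71A12 held 2 (102 and 233 bases), WRKY62 held 2 (91 and 231 bases) and RLP28 held 3, from 39 to 173 bases before it. FMO1 held 4 over both strands, from 108 to 189 bases before it, of which a pair overlapped.

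**Figure D5:**
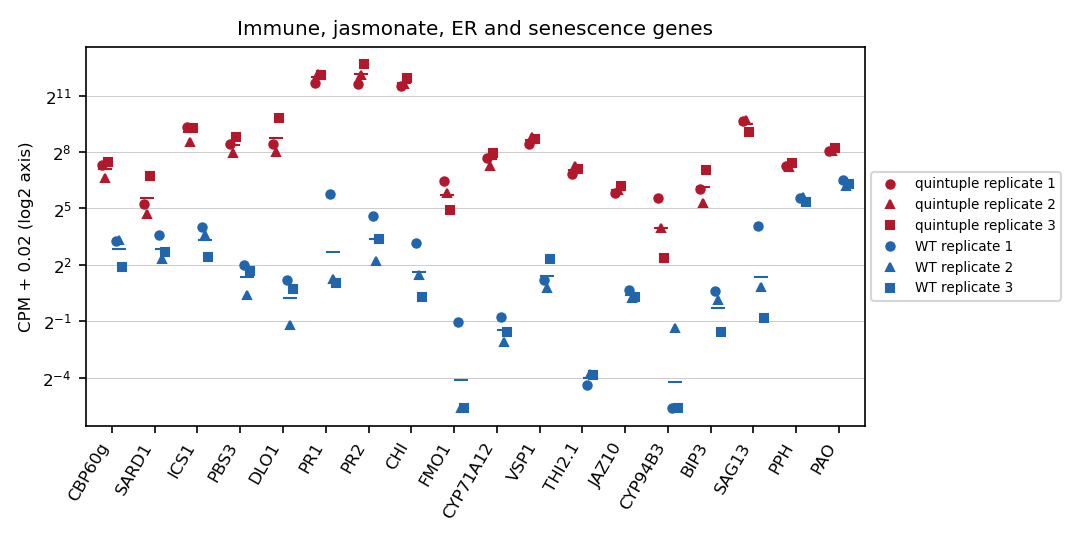
Level of genes of SA and other immune outputs, jasmonate, the ER and senescence in each library as CPM plus 0.02 on a log2 axis, quintuple (red) left of WT (blue), with lines at the geometric means. For all genes shown, the quintuple libraries lie above the WT libraries, and WT replicate 1 is the highest WT library for PR1, FMO1 and SAG13.

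Jasmonate genes rose beside the SA genes. Of 13 tested genes of jasmonate synthesis 8 rose (median log2 fold change 1.31). All 6 tested genes that inactivate the hormone rose (median 4.05), and 8 of 10 tested outputs rose (median 5.36). AOC3, an allene oxide cyclase, had 47.5, 41.3 and 43.4 CPM in quintuple, against 1.75, 1.96 and 1.23 CPM in WT (log2 fold change 4.74 ± 0.22). AOS, the step before it, had 273, 373 and 199 CPM in quintuple, against 274, 214 and 301 CPM in WT and did not pass the test. Of AOC3 and AOS, AOC3 alone was called, and the other allene oxide cyclase genes of the list are not given here. For 12 of the 13 tested genes of the list all quintuple libraries were above all WT libraries, as they were for 34.6% of all tested genes. CYP94B3, which oxidises the active jasmonoyl-isoleucine, had 47.2, 15.5 and 5.15 CPM in quintuple, against 0, 0.365 and 0 CPM in WT (log2 fold change 7.51 ± 1.41). AT5G05600, a hydroxylase of jasmonate, had 126, 116 and 80.3 CPM in quintuple, against 4.87, 3.75 and 2.98 CPM in WT (log2 fold change 4.80 ± 0.28). The outputs of the branch that MYC factors drive were high. VSP1, a vegetative storage protein, had 345, 443 and 417 CPM in quintuple, against 2.29, 1.67 and 4.97 CPM in WT (log2 fold change 7.07 ± 0.51). THI2.1, a thionin, had 113, 151 and 136 CPM in quintuple, against 0.0269, 0.0521 and 0.0492 CPM in WT (log2 fold change 11.50 ± 0.27), at an edgeR adjusted p of 7.59e-05. Of the branch shared with ethylene, the tested genes on this list, ORA59 and PDF1.2A, were not called as higher. PR3 (AT3G12500) and PR4 (AT3G04720), which also respond to that branch, are on the PR list and rose. The regulator gene ORA59 had 0.202, 0.809 and 0.121 CPM in quintuple, against 1.94, 1.303 and 0.837 CPM in WT (edgeR adjusted p = 0.0761). With the replicate number as a block it was called as lower (edgeR adjusted p = 0.0454). The defensin gene PDF1.2A had 7.81, 6.43 and 0.342 CPM in quintuple, against 6.51, 0.965 and 0.468 CPM in WT (edgeR adjusted p = 0.578). Of the 10 JAZ repressors 7 rose. JAZ10 had 56.2, 64.4 and 73.1 CPM in quintuple, against 1.59, 1.17 and 1.18 CPM in WT (log2 fold change 5.62 ± 0.21). The difference between the branches was not tested.

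In the synthesis of camalexin, the main phytoalexin of *Arabidopsis*, and related nitriles 6 of 7 tested genes rose. CYP71A12 had 208, 152 and 244 CPM in quintuple, against 0.565, 0.209 and 0.3199 CPM in WT (log2 fold change 9.10 ± 0.44), at an edgeR adjusted p of 0.000159. Its close copy CYP71A13 had 31.7, 40.4 and 16.4 CPM in quintuple, against 4.17, 0.287 and 0.0246 CPM in WT (log2 fold change 4.31 ± 1.33). PAD3, which makes camalexin itself, had 21.02, 35.6 and 46.2 CPM in quintuple, against 6.296, 0.495 and 0.468 CPM in WT (log2 fold change 3.83 ± 1.07). WT replicate 1 was the highest WT library for all 3, and the calls of CYP71A13 and PAD3 were lost without WT replicate 2.

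The secretory pathway and senescence lists rose in nearly all members. Of 16 tested ER chaperones and stress regulators 15 rose (median log2 fold change 1.40), and 7 of them when the fold was tested against 2. BIP3, the stress-induced form of the ER chaperone BiP, had 66.2, 39.02 and 130.0 CPM in quintuple, against 1.51, 1.07 and 0.3199 CPM in WT (log2 fold change 6.35 ± 0.74). PDIL1-1, a disulfide isomerase, had 401, 403 and 767 CPM in quintuple, against 99.01, 83.5 and 117 CPM in WT (log2 fold change 2.39 ± 0.32). CRT3, a plant calreticulin needed for receptor folding, had 467, 383 and 756 CPM in quintuple, against 93.6, 59.2 and 49.5 CPM in WT (log2 fold change 2.99 ± 0.38). All 3 were higher in every quintuple library. BIP1, a constitutive BiP gene, had 674, 647 and 1204 CPM in quintuple, against 353, 362 and 372 CPM in WT. It was highest in quintuple replicate 3, and its call was lost without that library. Of 13 tested senescence genes 11 rose (median log2 fold change 3.02). SAG13 had 814, 850.2 and 529 CPM in quintuple, against 16.5, 1.72 and 0.541 CPM in WT (log2 fold change 6.87 ± 1.39). Genes that break down chlorophyll rose as well. SGR1 had 68.5, 59.4 and 103 CPM in quintuple, against 16.5, 13.8 and 12.9 CPM in WT. PPH had 156, 149.7 and 171 CPM in quintuple, against 46.5, 48.4 and 40.97 CPM in WT. PAO had 269, 263 and 301 CPM in quintuple, against 90.6, 74.4 and 78.8 CPM in WT. The groups did not overlap for any of them. NYC1, another gene of chlorophyll breakdown, was high in replicate 3 of both genotypes, with 211, 166 and 440.4 CPM in quintuple, against 89.9, 94.6 and 399 CPM in WT, and did not pass the test. SAG12, the marker of late leaf senescence, was under the filter, with 0.783, 0.0476 and 1.31 CPM in quintuple, against 0, 0 and 0 CPM in WT.

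In some pathways the share of called genes was near or under the background, though single members moved far. Of 17 tested ethylene genes 3 rose and 1 fell, of 10 indole glucosinolate genes 2 rose and of 10 brassinosteroid genes 1 rose and 1 fell, beside 19.5% of all tested genes in each direction. Log2 fold changes ran from -4.18 to 5.59 for ethylene, from -1.24 to 6.57 for indole glucosinolates and from -7.22 to 3.07 for brassinosteroid. The lowest, BR6OX1, had no count in quintuple and was at least 19.6-fold lower, from a level of 0.448 CPM in WT. EIN3, the transcription factor of ethylene signalling, had 178, 164 and 161 CPM in quintuple, against 97.6, 89.8 and 72.6 CPM in WT, under the fold threshold (0.95 ± 0.15). CYP83B1, an enzyme of indole glucosinolate synthesis, had 365, 379 and 212 CPM in quintuple, against 264, 176 and 187 CPM in WT. BRI1, the brassinosteroid receptor, had 149.8, 148 and 98.6 CPM in quintuple, against 144, 159 and 104 CPM in WT. Neither was called. Of the 14 aliphatic glucosinolate genes 4 fell and 1 rose. MYB28, the regulator of the pathway, had 44.5, 48.9 and 23.7 CPM in quintuple, against 96.7, 79.4 and 118 CPM in WT (log2 fold change -1.33 ± 0.30). Vascular genes were divided. Of 8 markers 3 fell, XCP1, XCP2 and VND7, all genes of the water-conducting xylem vessels. XCP1, a protease, had 5.33, 3.07 and 5.15 CPM in quintuple, against 20.8, 22.1 and 26.6 CPM in WT. The sieve tube gene APL had 18.4, 17.5 and 16.7 CPM in quintuple, against 19.4, 19.4 and 14.2 CPM in WT and was not called. The secondary wall cellulose synthase gene CESA4 had 8.49, 14.1 and 22.4 CPM in quintuple, against 16.8, 14.99 and 14.4 CPM in WT and was not called.

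Some genes were detected in a single genotype at this depth. In WT 136 tested genes had no count in any library, all of which rose, and in quintuple 61 had none, all of which fell. Such calls follow in part from the filter, which a gene at 0 passes only through the other genotype. Of the genes without a count in WT, sks15 had 40.4, 58.9 and 44.9 CPM in quintuple, at least 1859-fold higher. AT1G26410 had 12.7, 8.31 and 18.8 CPM in quintuple, at least 527-fold higher. The named genes of the opposite kind reached 26.1 CPM in WT. Of the genes without a count in quintuple, AT3G05727 had 19.7, 26.1 and 15.6 CPM in WT, at least 892-fold lower in quintuple. BT5 had 6.22, 23.1 and 4.87 CPM in WT, at least 496-fold lower in quintuple. Among genes that averaged 10 counts or more in quintuple and in WT, the 10 highest log2 fold changes lay between 8.50 ± 0.76 and 9.60 ± 1.02. They included CHI, CYP71A12, PR2, RLP40 and NATA1, an acetyltransferase gene induced by jasmonate. The peroxidase gene PRX52 had 128, 231 and 101 CPM in quintuple, against 0.215, 0.574 and 0.271 CPM in WT. The amylase gene AMY1 had 181, 149 and 275 CPM in quintuple, against 0.673, 0.209 and 0.763 CPM in WT. The 10 lowest lay between -9.71 ± 1.31 and -6.82 ± 0.68 and included PDF1. GER3, a germin-like protein, had 0.253, 0.905 and 1.55 CPM in quintuple, against 230.3, 310.2 and 1754 CPM in WT. LTL1, a lipase, had 0.606, 0.619 and 0.141 CPM in quintuple, against 119.6, 103 and 104.8 CPM in WT. WT replicate 3 stood above the other WT libraries for GER3, and the groups did not overlap for any of these 20 genes, a requirement of the rule that named them.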

How the data were processed

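RNA of the aerial parts of quintuple and WT seedlings was sequenced after extraction with TRIzol and library preparation with a VAHTS Universal kit. The deposited values are raw fragment counts for each gene and FPKM, which the authors obtained from those counts divided by the library total and by a gene length. HISAT2, HTSeq and R 3.2.0 are named in the submitters' processing notes, without roles. The genome build is not given in the sources used here. The gene lengths implied by counts and FPKM equalled the exon lengths of RefSeq TAIR10.1 within 1 base for all 21061 genes where they could be computed, so its coordinates and sequences were used. The counts of the 6 libraries were filtered by filterByExpr, scaled by TMM and tested with edgeR 4.0.16 (quasi-likelihood, no block) in R 4.3.3, with Benjamini-Hochberg adjustment. DEGs had an adjusted p below 0.05 and a fold of at least 2. The test was checked on simulated data. Each library held at least 38698646 fragments, so 3 counts correspond to 0.0603 to 0.0807 CPM; floors cover counting error only. Folds against a group at 0 are bounds against 3 counts over its 3 libraries.

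Named genes are the CBP60 family and the genes that flank the mutated ones, the 10 highest and 10 lowest fold changes among genes without overlap of the groups that averaged 10 counts or more in quintuple and in WT, up to 4 genes per direction and textbook members of each list, 5 genes at 0 in each genotype, and the 10 highest FPKM values. Members and lists were chosen with earlier results of these data known, and the genes whose promoters are printed were picked after their motifs were seen. Deviations from the group means correlated at 0.214, 0.212 and 0.423 between libraries of equal replicate number 1, 2 and 3. Unequal numbers gave -0.362 to 0.282. Quintuple replicate 1 correlated more with WT replicate 2 (0.282) than with WT replicate 1 (0.214). Quintuple replicate 2 correlated more with WT replicate 2 (0.212) than with WT replicate 1 (0.127). These values match replicate 3 across the genotypes but do not show that replicates 1 and 2 are pairs. A blocked fit therefore served only as an alternative. Other alternatives were RLE, upper-quartile and library-size scaling, other filters, DESeq2 1.42.0, glmTreat, all 12 libraries, limma 3.58.1 on log2(FPKM + 1) and log2(FPKM + 0.1), and leaving out libraries.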

Additional observations from a re-analysis of the deposited data

How the results depend on the processing

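The numbers of DEGs, 3846 up and 3849 down, changed little with scaling by RLE factors (3845 and 3847), without a filter (4067 and 4056) and with DESeq2 (4264 and 4351). Testing the fold itself against 2 (glmTreat) left 2606 and 2263, and limma on log2(FPKM + 1) gave 3936 and 2194; the pseudocount of 1 shrinks changes of low genes. With log2(FPKM + 0.1) there were 4872 and 3006. Without a single library they ranged from 3587 to 3885 up and from 3567 to 3792 down. With the replicate number as a block there were 3922 and 4024, of which 3727 and 3710 were called in the same direction without it. Of the 640 tested named genes the block changed 36 calls, 6 lost and 30 gained, and no other call among them.

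Among the named genes, 3 that were not called were called against the sign of their fold change under an alternative, each with a high WT replicate 3. F3H (log2 fold change -0.28) ranged from -0.75 to 1.01 without a single library and was at 1.05 without replicate 3 of both genotypes. SWEET12 (-0.06) ranged from -0.59 to 2.16 without a single library and was at 1.93 without replicate 3 of both, and CHS (-0.29) at 1.23 without replicate 3 of both genotypes. The cause was not tested. Depth limits values near 3 counts per library. In simulated data with 3 libraries per genotype a change of 8-fold was recovered more often than a smaller one. That simulation changed a small share of genes and held no replicate effect, so it does not measure the recovery in these libraries.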

Other observations

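Genes of abscisic acid and cold responses were also higher in quintuple. Of 17 tested genes 12 rose and none fell (median log2 fold change 1.89), and with the replicate number as a block 14 rose and 1, CYP707A3, fell. HAI1, a phosphatase of abscisic acid signalling, had 118, 61.4 and 302 CPM in quintuple, against 0.673, 0.209 and 0.787 CPM in WT (log2 fold change 8.16 ± 0.88). RD29B, a target of the hormone, had 38.05, 21.7 and 89.8 CPM in quintuple, against 0.242, 0.1303 and 0.148 CPM in WT (log2 fold change 8.15 ± 0.73). NCED3, which makes the precursor of the hormone, had 84.2, 23.9 and 37.9 CPM in quintuple, against 1.103, 4.93 and 1.33 CPM in WT (log2 fold change 4.31 ± 0.78). All quintuple libraries lay above all WT libraries for these genes. The cold genes COR15A and COR15B, high in WT replicate 3, did not pass the test (-0.23 ± 1.04 and -1.06 ± 1.60). In sugar transport 3 of 11 tested genes rose and 3 fell (27.3% each, beside 19.5% of all tested genes in each direction), with a median log2 fold change of -0.06. STP13, a hexose importer of defence, had 242, 186 and 518 CPM in quintuple, against 8.07, 5.24 and 6.15 CPM in WT (log2 fold change 5.60 ± 0.49). The cell wall invertase gene CWINV1 had 69.7, 86.9 and 82.1 CPM in quintuple, against 27.9, 14.2 and 19.7 CPM in WT (log2 fold change 1.95 ± 0.26). SWEET2, a vacuolar sugar transporter gene, fell, with 8.54, 7.02 and 3.799 CPM in quintuple, against 44.3, 36.7 and 20.6 CPM in WT (log2 fold change -2.39 ± 0.40). In lignin synthesis 7 of 17 tested genes rose (41.2%) and 2 fell (11.8%), beside 19.5% of all tested genes in each direction. CAD5, an alcohol dehydrogenase of lignin synthesis, had 339, 342 and 329 CPM in quintuple, against 33.2, 23.8 and 17.5 CPM in WT (log2 fold change 3.76 ± 0.27). CCR2, a reductase of the same pathway, had 79.99, 42.5 and 31.8 CPM in quintuple, against 1.21, 0.678 and 0.0246 CPM in WT (log2 fold change 6.34 ± 0.97). PAL2, an enzyme at the entry of the pathway, did not pass the test (-0.11 ± 0.19).

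Heat shock genes stood apart in quintuple replicate 1. HSP101, a chaperone that dissolves protein aggregates, had 260.3, 12.6 and 13.4 CPM in quintuple, against 14.8, 32.5 and 14.9 CPM in WT. HSFA2, a heat shock factor, had 250.2, 14.5 and 4.14 CPM in quintuple, against 1.43, 17.99 and 2.8298 CPM in WT. Neither was called, and quintuple replicate 1 was the highest library for both while quintuple replicates 2 and 3 lay within or near the WT range. Of 9 tested heat shock genes 7 were called as higher in quintuple, 5 with the replicate number as a block, 4 without quintuple replicate 1 and 3 without WT replicate 1 or without WT replicate 3. HSP90.1 was called as higher under each of the 18 alternatives, with 731, 149.6 and 283 CPM in quintuple, against 18.3, 39.0004 and 18.1 CPM in WT (log2 fold change 3.95 ± 0.69). In anthocyanin synthesis the regulator gene PAP1 had 50.7, 69.2 and 35.4 CPM in quintuple, against 3.36, 2.76 and 9.99 CPM in WT (log2 fold change 3.27 ± 0.57). FLS1, which leads to flavonols, had 1.87, 0.976 and 2.37 CPM in quintuple, against 29.9, 18.22 and 216 CPM in WT (log2 fold change -5.66 ± 1.13). WT replicate 3 was the highest WT library for both. Of 15 tested genes of the flavonoid list 4 rose (26.7%) and 2 fell (13.3%), near the 19.5% of all tested genes called in each direction. With the replicate number as a block 6 rose, and 10 rose when WT replicate 3 was left out.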
